A study of Mus musculus with 8 samples.

Results

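The Hedgehog ligands, receptors and coreceptors are the genes whose products send the Hedgehog signal and receive it at the cell surface. The genes were chosen by name as Shh, Ihh, Ptch1, Smo, Hhip, Gas1, Boc, Cdon and Disp1, and all probes that carry 1 of these names on the array were taken. The 9 genes are measured by 18 probes in 45 spots, of 27827 gene names, 41174 probes and 43379 spots in all. RNA came from the posterior second heart field (pSHF), a progenitor region behind the heart tube that supplies atrial septum progenitors, dissected from mouse embryos at E9.5 (embryonic day 9.5) and hybridised to 1-colour Agilent whole-genome arrays. Of the 8 arrays, 4 carry RNA of Tbx5-/+ embryos, which have 1 mutant copy of the T-box transcription factor gene Tbx5, and 4 carry RNA of Tbx5 WT embryos of the same stage. All embryos came from a mixed background and from females given gonadotropins before mating, and both groups carry the embryo numbers 1, 5, 6 and 7. The design text describes each array as a pool of RNA, so the arrays measure pools, and the number of embryos in a pool is not given in the sources used here. The comparison asks whether these upstream members of the pathway differ in the pSHF when Tbx5 dosage is reduced.

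In Hedgehog signalling, a lipid-modified ligand such as Shh or Ihh is released from the sending cell with the help of the transmembrane protein Disp1. It binds the receptor Ptch1, which otherwise holds the signal transducer Smo in check. Gas1, Boc and Cdon are coreceptors that help Ptch1 bind ligand, while Hhip binds ligand and limits its range. Ptch1 and Hhip are also induced by the signal in many tissues, so their levels are commonly used as readouts of the pathway. At this stage Shh is made by the foregut endoderm next to the pSHF mesenchyme, notochord and floor plate, and the mesenchyme responds to it.

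The probes are the only sequence of these genes that the arrays read, and genes with several probes are read at several places. Shown are the probes on which the results for Ptch1, Smo and Disp1 turn, written 5′ to 3′ in lower case with no letters marked. Each has at least 1 forward frame without a stop codon.
Ptch1 A_51_P127435: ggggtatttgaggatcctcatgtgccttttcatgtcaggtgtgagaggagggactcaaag
Smo A_52_P444864: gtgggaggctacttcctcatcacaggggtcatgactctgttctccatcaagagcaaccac
Disp1 A_52_P243152: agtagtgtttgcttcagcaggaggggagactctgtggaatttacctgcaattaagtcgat
In the mm9 build given by the array design, the Ptch1 probe lies on the minus strand at chr13:63612907-63612966. The Smo probe aligns to the plus strand between chr6:29705582 and 29706815, a stretch of 1234 bases for a probe of 60, so it crosses an exon junction. The Disp1 probe lies on the unplaced sequence chr1_random at positions 58176 to 58235, minus strand. The second Smo probe with usable signal, A_51_P258766, starts 3835 bases into its transcript, against 1765 for the junction probe. The second Disp1 probe, A_52_P377416, starts at base 4778 of its transcript, against 1341 for the probe shown.

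No member of the group passed the test between Tbx5-/+ and Tbx5 WT. The smallest p was that of the coreceptor Gas1, 1.56-fold lower in Tbx5-/+ with no overlap between the groups, but its adjusted p was 0.207. Of the 18 probes, 11 probes of 8 genes were above background often enough to test, and 7 probes, including both Ihh probes, were not. Signals are given after variance stabilizing normalization (VSN) on the log2 scale, and a difference is Tbx5-/+ minus Tbx5 WT. To be tested, a probe had to stand well above background on each of the 4 arrays of either genotype, a filter that 48.6% of all probes met. With limma and Benjamini-Hochberg adjustment over all 20031 tested probes, 0 member probes were called at an adjusted p under 0.05, and the background was 0% of all tested probes. At an unadjusted p under 0.05, 1 of the 11 member probes was lower and 0 were higher, against 16.8% lower, 3.33% higher and 20.2% in either direction over all tested probes. These counts moved with the scaling: with the 75th percentile 4 probes reached it, Ptch1 lower and Smo A_51_P258766, Cdon and Disp1 A_52_P243152 higher, and centred on array medians the same 3 higher probes did, with Gas1 in neither, against 24.2% and 22.8% of all tested probes in either direction. Under VSN the groups did not overlap on 2 of the 11, Gas1 and 1 Disp1 probe, against 9.24% of all probes. The 11 members split into 7 lower and 4 higher, so 63.6% were lower, against 67.5% of all tested probes. Their median difference was -0.47, against -0.22 over all tested probes.

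On the arrays, between 45.0% and 63.6% of spots were well above background, and no spot was saturated. The labels were checked on the targeted gene: the Tbx5 probe A_52_P523712 read 9.04, 9.79, 8.97 and 8.62 in Tbx5-/+ arrays 1, 5, 6 and 7 and 11.48, 11.53, 10.46 and 11.55 in the Tbx5 WT arrays of the same numbers. The groups did not overlap, with a difference of -2.15 (adjusted p = 0.107). The other Tbx5 probe, A_51_P469338, differed by -0.19 (adjusted p = 0.732), and which part of the gene the allele lacks is not given in the sources used here. All 11 pSHF mesenchyme markers listed passed the same filter. Of these markers 8 were lower and 3 higher, with a median difference of -0.72 and 5 lower at an unadjusted p under 0.05. The list holds Tbx5 itself, the mutated gene, as 1 of the 5. Its genes Foxf1a and Osr1 are counted again below among the Hedgehog targets. Foxf1a, Osr1 and Gata4 passed the filter through the Tbx5 WT arrays alone. The mean summed level of the list was 16.38 in Tbx5-/+ and 16.15 in Tbx5 WT. All 8 tested liver bud genes were lower, with a median of -1.01, and 6 of 8 endothelial genes were, with a median of -0.89. Of each list 3 were lower at an unadjusted p under 0.05. Over all tested probes 67.5% were lower, and 16.8% were lower at an unadjusted p under 0.05. By contrast, 4 of 6 tested neural tube genes were higher, with a median of 0.49. Of 10 cardiomyocyte genes 7 were lower, with a median of -0.05, and of 12 foregut endoderm genes 9 were, with a median of -0.29. The summed levels of all 8 cell type lists nevertheless overlapped between the groups, and the part of these cells in the member values was not tested. Array Tbx5-/+ 1 had the lowest summed level of the pSHF markers, 14.98 on the log2 scale against 15.92 to 17.08 on the other 7 arrays. This was not particular to them. The same array was lowest for liver bud (12.94), cardiomyocyte (18.27), notochord and floor plate (12.35) and primitive erythrocyte (16.48) genes. It was not lowest for foregut endoderm, neural tube and endothelial genes.

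Shh, the main ligand, read 9.41, 10.57, 10.04 and 10.83 in Tbx5-/+ 1, 5, 6 and 7. In the Tbx5 WT arrays of the same numbers it read 10.87, 10.80, 10.48 and 10.79. The groups overlapped, because Tbx5-/+ 5 and 7 lay inside the Tbx5 WT range, while Tbx5-/+ 1 was the lowest of all arrays. The mean was 10.21 ± 0.63 (SD, n = 4) in Tbx5-/+ and 10.73 ± 0.17 in Tbx5 WT. The difference of -0.52, or 1.43-fold lower, had a 95% interval of -1.19 to 0.15 and an adjusted p of 0.320 (limma). Within the embryo numbers the differences were -1.46, -0.23, -0.43 and 0.05 for 1, 5, 6 and 7. Without Tbx5-/+ 1 the difference was -0.25 (adjusted p = 0.420).

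The Shh probe was printed 10 times on each array. The SD over the 10 spots ranged from 0.0214 to 0.0698 across the arrays, which covers reading within an array and leaves out labelling and hybridisation. All 10 spots were well above background on all 8 arrays. All Shh spots of Tbx5-/+ 1 shared its low value, from 9.30 to 9.54.

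Markers of tissues that make Shh did not move together on that array. Foxa2, a forkhead gene of notochord, floor plate and foregut endoderm, read 12.31 on Tbx5-/+ 1 against 13.33 to 13.61 on the other 7 arrays, and the foregut gene Foxa1 was also lowest there, at 7.66. The genes Sox2, Cdh1, Epcam and Pax9 of the foregut list were instead highest there of the 8 arrays, at 11.09, 11.37, 11.77 and 9.34. These genes were named after their values were seen. Of the 5 notochord and floor plate genes only Nog and Foxa2 were tested, and Nog was not lowest on Tbx5-/+ 1. T, Foxj1 and Chrd were not above background often enough. The paper states that its dissection for transcriptional profiles removed the neural tube, of which the floor plate is a part. All 12 foregut endoderm genes were tested, and their sum, carried mostly by Krt8 and Krt18, was 17.01 on Tbx5-/+ 1 and 16.64 to 16.80 on the other 3 Tbx5-/+ arrays. The part of these cell types in the Shh values was not tested. In bulk tissue, fewer Shh-making cells and less Shh per cell cannot be told apart.

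**Figure D1:**
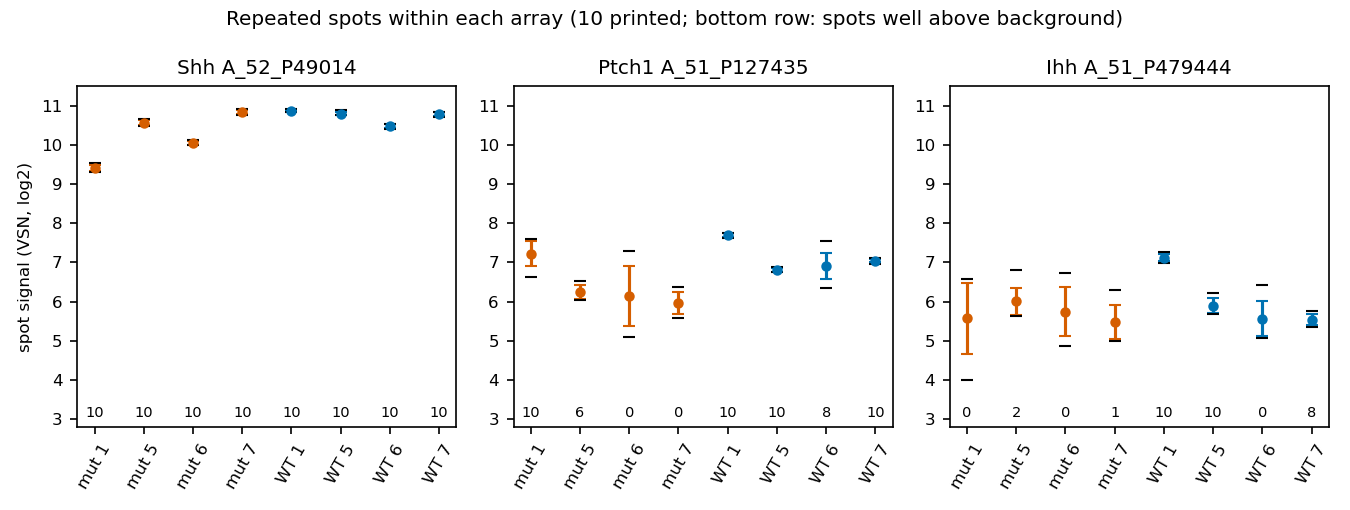
Spot signals (VSN, log2) of the Shh, Ptch1 and Ihh probes printed 10 times on each array, with points for the mean, bars for the SD over spots, dashes for the lowest and highest spot, and the bottom row for the number of spots well above background. Shh spots sit close together on every array with Tbx5-/+ 1 (mut 1) lowest, while the spots of Ptch1 and Ihh spread further on several arrays, with an SD of up to 0.758 and 0.894.

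Ihh, a second ligand, was too dim to test. Its probe A_52_P403398 read 4.95, 6.57, 5.92 and 6.12 in Tbx5-/+ 1, 5, 6 and 7 and 7.65, 6.22, 6.27 and 6.02 in Tbx5 WT. A_51_P479444 read 5.79, 6.05, 5.87 and 5.55 in Tbx5-/+ and 7.13, 5.91, 5.63 and 5.54 in Tbx5 WT. Neither was well above background on any Tbx5-/+ array, and each was on 3 of the 4 Tbx5 WT arrays. On both probes Tbx5 WT 1 was the highest array while the other 7 arrays lay at 6.57 or below on the first and at 6.05 or below on the second. No fold is given for either probe, since on A_52_P403398 Tbx5-/+ 5, at 6.57, exceeded the 3 Tbx5 WT arrays other than Tbx5 WT 1. Tbx5 WT 1 also had the highest summed foregut endoderm level, 17.56 against 16.33 to 17.01 on the other 7 arrays, a sum carried mostly by the bright keratins Krt8 and Krt18, and the part of that tissue in the Ihh values was not tested.

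Disp1, which releases lipid-bearing ligand from the cell, gave opposite differences on its probes. A_52_P243152 read 8.55, 8.76, 8.61 and 8.62 in Tbx5-/+ 1, 5, 6 and 7 and 8.53, 8.17, 8.42 and 8.30 in Tbx5 WT. All Tbx5-/+ arrays lay above all Tbx5 WT arrays, with 0.015 between the nearest values, a separation seen for 0.849% of all probes in this direction. The difference of 0.28 (95% interval -0.11 to 0.68) had an adjusted p of 0.352 by limma. An exact two-sided permutation test gave p = 0.0286, the smallest that 4 arrays against 4 can give when arrays are reassigned freely. Turning signs within the 4 embryo numbers, which pair the arrays, cannot give an exact p below 0.125. A_52_P377416 read 8.38, 7.97, 7.60 and 7.74 in Tbx5-/+ and 8.06, 8.30, 8.54 and 8.64 in Tbx5 WT, so the groups overlapped through number 1 alone. Its difference was -0.47 (95% interval -0.99 to 0.06, adjusted p = 0.275). With the 75th percentile it was -0.27, and centred on array medians -0.12.

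Ptch1, the receptor, was lower in Tbx5-/+ on 1 probe within each of the 4 embryo numbers. A_51_P127435 read 7.26, 6.25, 6.33 and 6.0005 in Tbx5-/+ 1, 5, 6 and 7 and 7.70, 6.81, 6.94 and 7.05 in Tbx5 WT. The groups overlapped, because Tbx5-/+ 1 exceeded 3 of the Tbx5 WT arrays, while within numbers 1, 5, 6 and 7 the differences were -0.44, -0.55, -0.61 and -1.05. The difference between means was -0.66 (1.58-fold lower, 95% interval -1.36 to 0.03, adjusted p = 0.257 by limma). With the 75th percentile it was -1.12, and centred on array medians -0.31. Without Tbx5-/+ 1, under VSN, the difference was -0.93 and passed the test (adjusted p = 0.0402 by limma), in a fit that called 14.4% of all tested probes. This value rests on Tbx5-/+ arrays near background, with 6, 0 and 0 of 10 spots well above it, so its size is uncertain.

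The Ptch1 signal was close to background in Tbx5-/+. Of its 10 spots, 10, 6, 0 and 0 were well above background in Tbx5-/+ 1, 5, 6 and 7, against 10, 10, 8 and 10 in Tbx5 WT. The probe passed the filter through the Tbx5 WT arrays. The second Ptch1 probe, A_52_P598605, was well above background on 1 Tbx5-/+ and 3 Tbx5 WT arrays, was not tested, and differed by -0.09. It ranged from 6.19 to 7.01 in Tbx5-/+ and from 5.74 to 7.29 in Tbx5 WT.

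Smo, the transducer that Ptch1 restrains, also gave opposite differences on its probes. A_51_P258766 read 15.14, 16.005, 16.21 and 15.66 in Tbx5-/+ 1, 5, 6 and 7 and 15.28, 15.19, 15.47 and 15.49 in Tbx5 WT. Numbers 5, 6 and 7 were higher in Tbx5-/+ and number 1 was lower, with a difference of 0.39 (95% interval -0.17 to 0.96, adjusted p = 0.358). The junction probe A_52_P444864 read 7.77, 7.33, 6.0005 and 6.18 in Tbx5-/+ and 8.31, 7.57, 6.97 and 7.60 in Tbx5 WT. It was lower in Tbx5-/+ within all 4 embryo numbers, but the groups overlapped, and the difference was -0.79 (95% interval -1.75 to 0.17, adjusted p = 0.298). Only 2 of the Tbx5-/+ arrays were well above background on it, so it passed the filter through the Tbx5 WT arrays. The remaining probe, A_51_P392665, was not well above background on any array.

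Whether probes of 1 gene disagreed was tested on the gap between them on each array, with an exact two-sided permutation test for the 3 genes with a pair of tested probes. The gap of Smo changed by 1.19 (exact p = 0.171, adjusted over the 3 pairs 0.171), and the change was above 0 in all 4 embryo numbers. For Disp1 the gap changed by 0.75 (exact p = 0.0571, adjusted p = 0.171). For Hhip it changed by -0.24 (exact p = 0.114, adjusted p = 0.171), below 0 in all 4 numbers. None of the 3 passed.

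**Figure D2:**
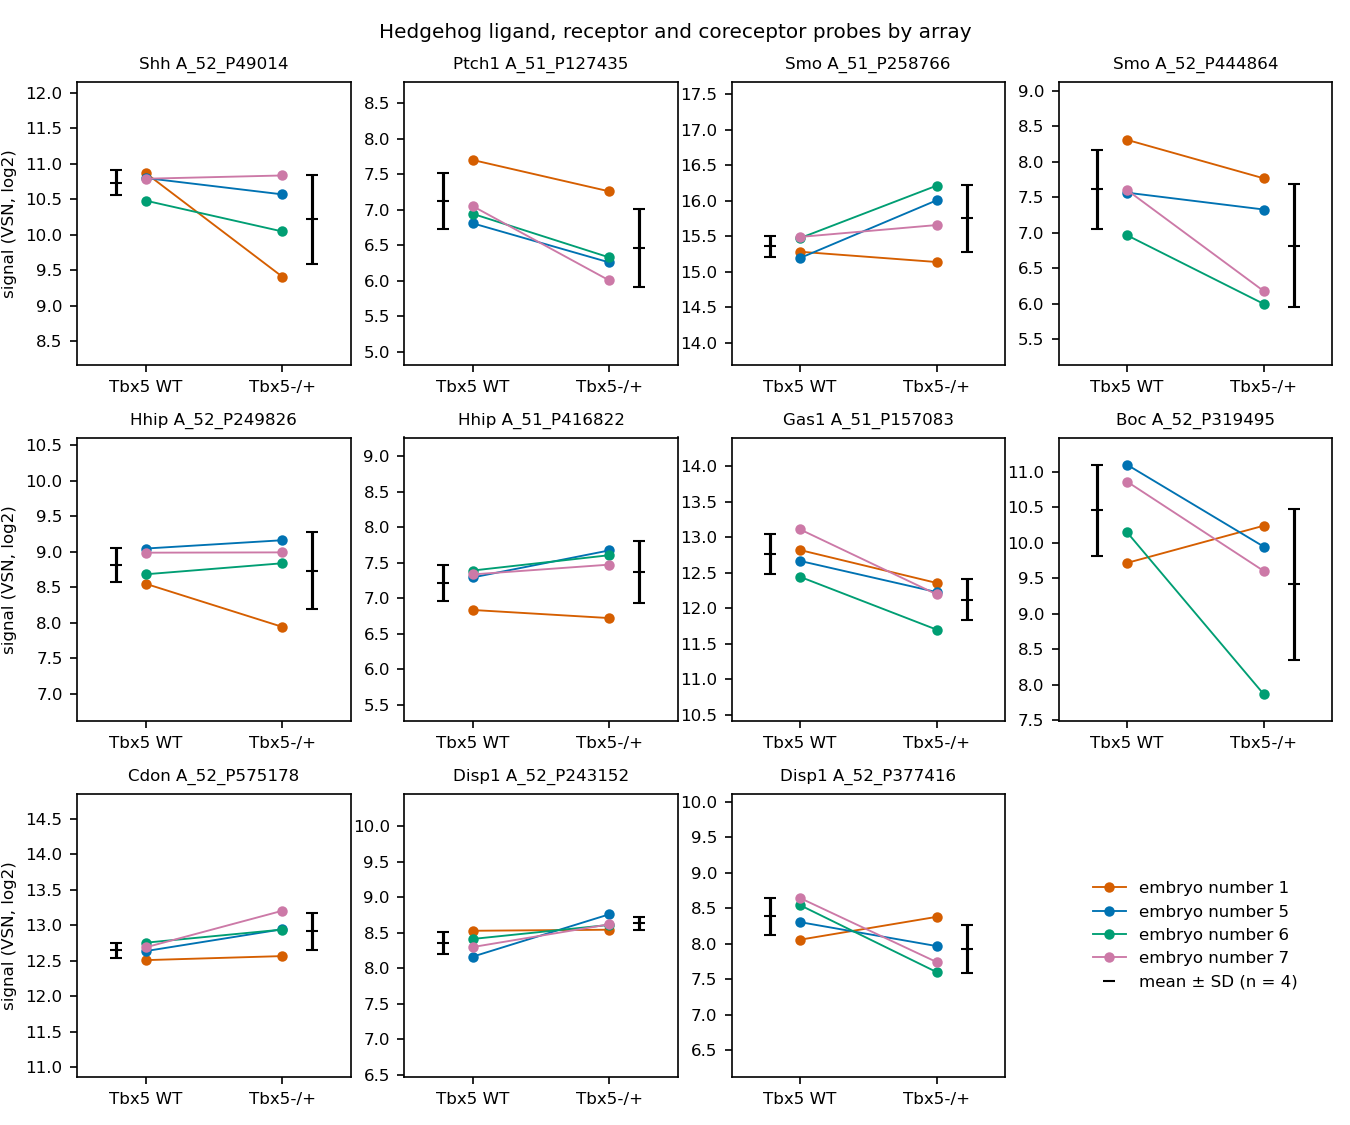
Signal (VSN, log2) of the 11 tested probes on each array, 1 panel a probe with the same axis length of 4 log2 units, lines joining arrays of the same embryo number, and bars for mean ± SD (n = 4). Gas1 and Disp1 A_52_P243152 are the panels without overlap between groups.

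Gas1, a membrane-anchored coreceptor, was the member with the smallest p. It read 12.35, 12.22, 11.70 and 12.19 in Tbx5-/+ 1, 5, 6 and 7 and 12.82, 12.66, 12.44 and 13.11 in Tbx5 WT. Every Tbx5-/+ array lay below every Tbx5 WT array, a separation that 8.39% of all probes showed in this direction. The means were 12.12 ± 0.29 (SD, n = 4) and 12.76 ± 0.28, a difference of -0.64 with a 95% interval of -1.15 to -0.14. The unadjusted p of limma was 0.0180, the adjusted p was 0.207, and the exact permutation p was 0.0286, while signs turned within the embryo numbers cannot give a p below 0.125. By array label, the difference was -0.45 on array 1 and -0.83 on array 2. Relative to the median of all tested probes, Gas1 lay at -0.42. Its difference was -0.24 with the 75th percentile and -0.29 centred on array medians, where its unadjusted p was no longer under 0.05.

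Boc, a second coreceptor, had the largest difference of the group and the widest interval. A_52_P319495 read 10.24, 9.95, 7.87 and 9.60 in Tbx5-/+ 1, 5, 6 and 7 and 9.72, 11.10, 10.15 and 10.86 in Tbx5 WT. Numbers 5, 6 and 7 were lower in Tbx5-/+ and number 1 was higher. The difference was -1.04 (2.06-fold lower, 95% interval -2.18 to 0.09, adjusted p = 0.268), and it was -0.53 without Tbx5-/+ 6. The other Boc probes were not tested: A_51_P162636 was not well above background on any array. A_52_P623296 was well above background on 1 Tbx5-/+ array and no Tbx5 WT array, and no fold is given for it.

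Cdon, the coreceptor related to Boc, was higher in Tbx5-/+ within all 4 embryo numbers by a small margin. A_52_P575178 read 12.56, 12.94, 12.94 and 13.20 in Tbx5-/+ 1, 5, 6 and 7 and 12.51, 12.63, 12.75 and 12.69 in Tbx5 WT. The groups overlapped through Tbx5-/+ 1, and the difference was 0.27 (95% interval -0.17 to 0.71, adjusted p = 0.418). The second Cdon probe, A_51_P334739, was not tested and differed by 0.16.

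Hhip, the ligand-binding antagonist, gave the smallest differences. A_52_P249826 ranged from 7.94 to 9.16 in Tbx5-/+ and from 8.55 to 9.04 in Tbx5 WT, and differed by -0.08 (95% interval -0.71 to 0.55, adjusted p = 0.874). A_51_P416822 ranged from 6.72 to 7.67 in Tbx5-/+ and from 6.83 to 7.39 in Tbx5 WT, and differed by 0.16 (95% interval -0.42 to 0.73, adjusted p = 0.726). On both probes number 1 was lower in Tbx5-/+ and numbers 5, 6 and 7 were higher. These intervals leave room for a change of either sign, and the direction of A_52_P249826 turned under other scalings.

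**Figure D3:**
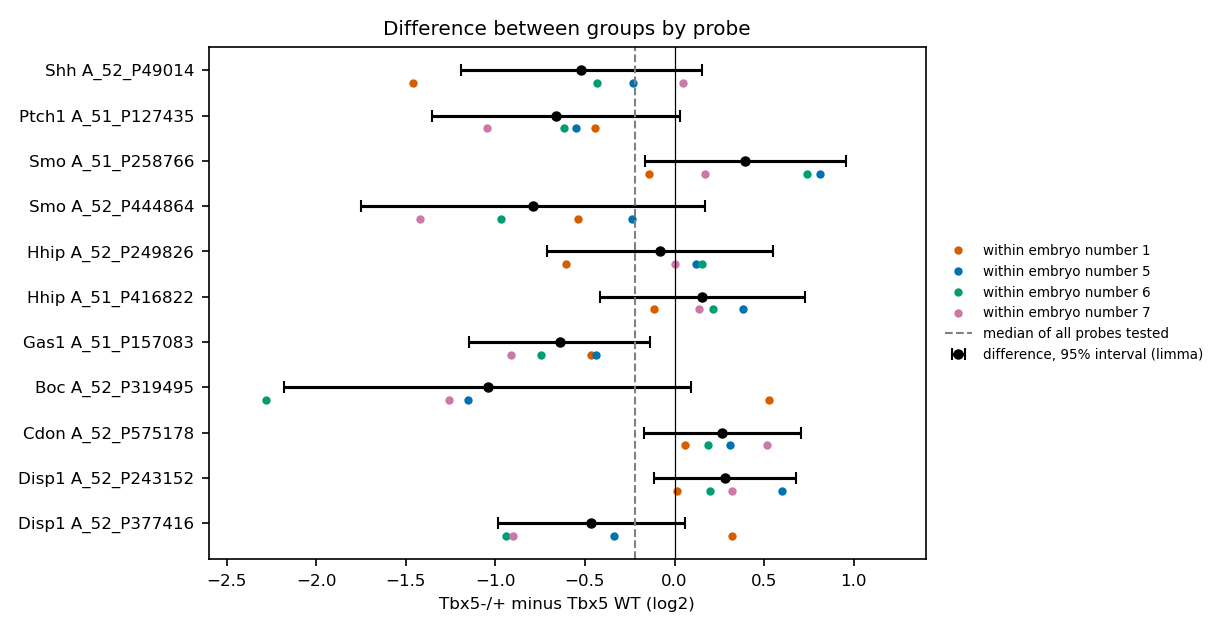
Difference between Tbx5-/+ and Tbx5 WT (log2) of each tested probe, with black points and bars for the estimate and its 95% interval, coloured points for the differences within each embryo number, and the dashed line for the median of all tested probes at -0.22. Only the interval of Gas1 lies wholly on 1 side of 0.

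Direction within the embryo numbers varied among the members. Of the 11 tested probes, 3 were lower in Tbx5-/+ in all 4 numbers, or 27.3% against 34.3% of all probes. These were Ptch1 A_51_P127435, Smo A_52_P444864 and Gas1, and the first 2 passed the filter through the Tbx5 WT arrays alone. A further 2 were higher in all 4 numbers, Cdon A_52_P575178 and Disp1 A_52_P243152, or 18.2% against 4.02% of all probes. With 11 probes of 8 genes these shares are descriptions. Number 1 differed in sign from numbers 5, 6 and 7 for both Hhip probes, Smo A_51_P258766, Boc A_52_P319495 and Disp1 A_52_P377416.

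The rest of the pathway was read from 49 further genes on the array, each by its brightest tested probe, of which 43 were tested. With limma, 0 were called. Of the 43, 30 were lower and 13 higher, where 67.5% of all tested probes were lower. At an unadjusted p under 0.05 10 were lower and 0 higher, against 16.8% and 3.33% of all tested probes. Their median difference was -0.28, against -0.22 over all tested probes. Among genes of ligand release 0 of 3 tested reached an unadjusted p under 0.05, of reception 1 of 7, of transduction 5 of 22 and of targets 6 of 13, all of these lower, with 2 genes on 2 lists each. The lists were drawn up with earlier results of these data known, so their counts are descriptions. Differences between the lists were not tested.

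The 3 genes with the smallest p among those lower were the targets Foxf1a, Osr1 and Bmp4. Foxf1a, a forkhead factor of splanchnic mesenchyme, read 7.13, 8.08, 6.44 and 7.06 in Tbx5-/+ 1, 5, 6 and 7 and 9.48, 8.39, 8.40 and 8.92 in Tbx5 WT, a difference of -1.62 (adjusted p = 0.109). Osr1, a zinc finger factor of the same mesenchyme, differed by -1.38 (adjusted p = 0.142), and Bmp4, a secreted signal, by -1.08 (adjusted p = 0.161). Among those higher, the smallest p values were of Efcab7 and Evc2, which act with Smo at the base of the cilium, and of the survival gene Bcl2. Their differences were 0.49, 0.49 and 0.60, with adjusted p of 0.277, 0.309 and 0.316. With the embryo number as a block, 5 of the 43 genes passed, including all 3 of the lower targets named here, while the background rose to 7.97% and 0 member probes passed. At an unadjusted p under 0.05 that fit had 4 of the 11 member probes, against 32.6% of all tested probes.

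**Figure D4:**
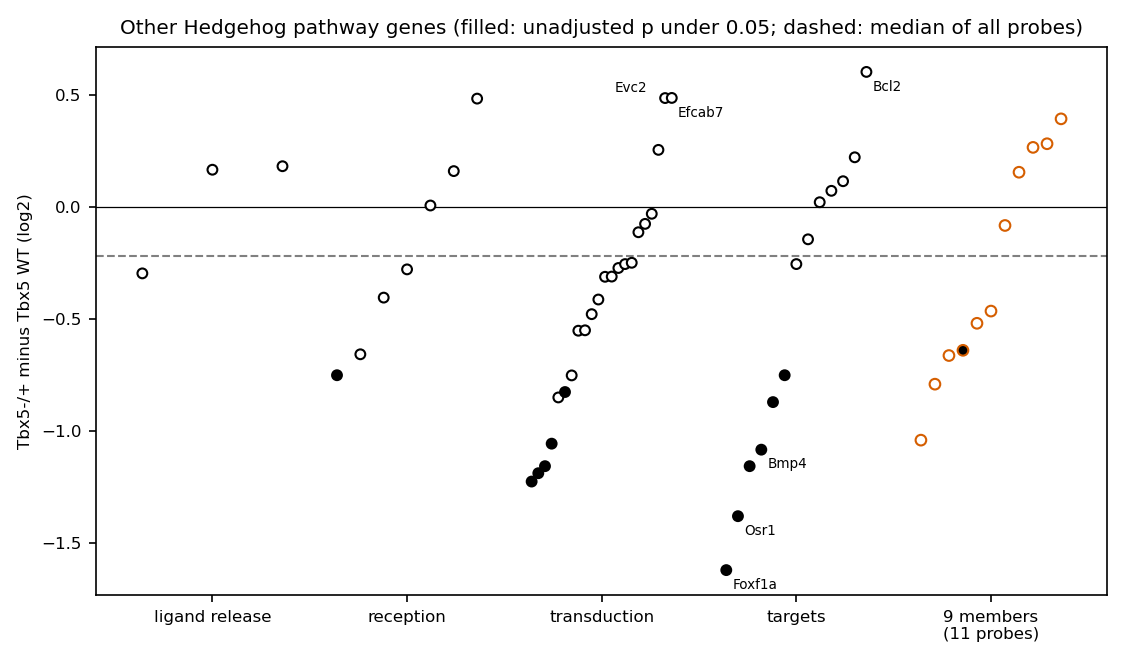
Difference between Tbx5-/+ and Tbx5 WT (log2) of the other Hedgehog pathway genes by list and of the 11 member probes, each point 1 gene or probe in order of its difference, filled at an unadjusted p under 0.05, with the dashed line at the median of all tested probes. Filled points lie among transduction and target genes, 1 is a reception gene, and 1 is a member (Gas1).

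The genes most like a member across the 8 arrays were found by Pearson's r over 20021 probes, as a description over 8 points that share the arrays' scaling. Most like Shh were Cyb5r1 (r = 0.983), Pdgfra (r = 0.979) and Ssr1 (r = 0.978). Those most like Gas1 were Zfp451 (r = 0.987), Wdr42a (r = 0.984) and Gpt2 (r = 0.979). No member was among them.

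Promoter windows of 250 bases before to 50 after the start site were listed in RefSeq (GRCm38.p6) for 7 of the 9 genes, in 8 windows. The GLI site letters GACCACCCA, searched on both strands, were in 0 of the 8 windows and in 0.253% of 32851 windows of all genes. The T-box letters AGGTGTGA were in 0 of the 8 and in 1.28% of all, and their core AGGTGT, which the longer letters contain, was in 1, that of Disp1, and in 13.7% of all. These windows hold no distal element, and nothing about either factor follows from them.

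The member differences moved with the scaling and with how arrays were weighted. Under scaling to the 75th percentile, unlike VSN, 56.5% of all tested probes were higher in Tbx5-/+, against 32.5% under VSN, and the median of all tested probes moved from -0.22 to 0.10. With array weights 7 member probes passed, all but Shh, both Hhip probes and Smo A_51_P258766, against a background of 58.2% of all tested probes called. Of these, 5 were lower and 2 higher, against 37.8% and 20.4% of all tested probes. With the study's added filter on the interquartile range, 0 member probes passed, against 2.37%. Gas1, Boc, Ptch1, Smo A_52_P444864 and Disp1 A_52_P377416 stayed lower, and Cdon, Disp1 A_52_P243152 and Smo A_51_P258766 stayed higher, in every alternative in which they were tested. Ptch1 and Smo A_52_P444864 were not tested where a probe had to stand well above background on all 8 arrays.

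**Figure D5:**
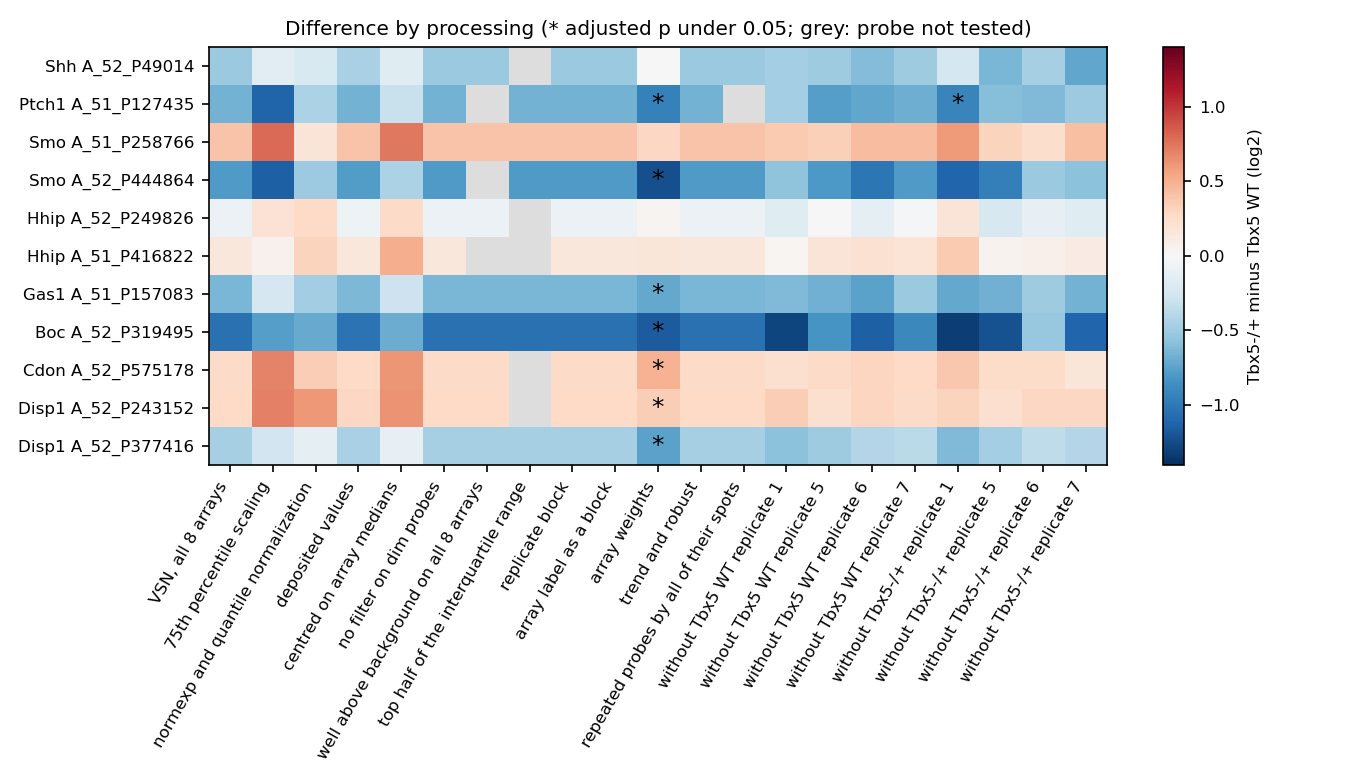
Difference between Tbx5-/+ and Tbx5 WT (log2, colour scale) of each tested member probe under each processing alternative, with asterisks for an adjusted p under 0.05 and grey where a probe was not tested. Asterisks stand under array weights (7 probes) and, for Ptch1, without Tbx5-/+ replicate 1.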

How the data were processed

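The deposited files are scanner output of Agilent Feature Extraction, version 10.5.1.1, per the labels. Per the file headers they hold spot intensity values (mean and background signals), quality marks and the mm9 positions of the probes. The deposited value table of the authors holds log2 values after VSN. Control spots and outlier-marked spots were left out. VSN was recomputed from the intensity values with an own implementation in R 4.3.3, and limma 3.58.1 fitted Tbx5-/+ against Tbx5 WT over all 8 arrays. Spots of 1 probe were averaged. A repeated probe counted as above background where most of its spots were. Fits were tested on simulated data. The authors' test, SAM, was not run.

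Samples with the same embryo number deviated together (r = 0.442, 0.391, 0.598 and 0.137 for 1, 5, 6 and 7), so the numbers of the labels' titles were taken to pair the arrays, although Tbx5-/+ 7 correlated more with Tbx5 WT 6 (r = 0.377). Each number lies on 1 array label (1 and 5, 6 and 7), so the block also holds it. Members and lists were chosen with earlier results of these data known. P-values measure the spread between pools, and the number of arrays limits the precision. Named genes were all 9 members, the other pathway genes called or the 3 of smallest p in each direction, Tbx5, and the 3 genes most like Shh and Gas1. Some cell type markers were named outside this rule, after their values were seen.

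Alternatives changed the scaling, the filter on dim probes, blocks, array weights and moderation, and left out each array. Taking repeated probes by all of their spots was added after seeing the data.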

Additional observations from a re-analysis of the deposited data

How the results depend on the processing

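No member probe passed an adjusted p of 0.05 under any of the alternatives tried, other than with array weights (7 probes) and without 1 array, Tbx5-/+ 1 (Ptch1), so leaving out 1 array at a time gave 0 to 1 called member probes. The median difference of the members, -0.47, was -0.15 with scaling to the 75th percentile and -0.12 with normexp and quantile normalization. It was -0.12 centred on array medians, -0.085 with no filter on dim probes and 0.0074 with array weights. The median over all tested probes, -0.22, moved too, to 0.10, -0.014, 0.13, 0.022 and -0.15 in the same order. Without 1 array the member median ran from -0.49 to -0.25. Other pathway genes called were 0, but 1 with the filter on the interquartile range, 5 with the replicate block, 29 with array weights and 0 to 6 without 1 array. With the replicate block 0 member probes were called, 4 against 1 reached an unadjusted p under 0.05, and the smallest adjusted p was 0.0667 (Ptch1). Signs turned for Hhip A_52_P249826, at 0.21 with the 75th percentile, 0.28 with quantile normalization, 0.27 centred, 0.0436 with array weights, and from -0.23 to 0.18 without 1 array, where it turned without Tbx5-/+ replicate 1. They also turned for Shh with array weights (0.0074) and for the change of gap between Hhip probes with the 75th percentile (0.15). The causes were not tested. Dim signal limits Ihh, Ptch1 and the junction probe of Smo.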
